A study of Mus musculus with 7 samples.

Results

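The genes described here encode 49 enzymes that break down amino acids in liver. They were chosen by name from textbook pathways, with earlier results of these data known. They were grouped by the amino acid they degrade: phenylalanine and tyrosine (3 genes), tryptophan (6), histidine (4), methionine and cysteine (8), glycine (6), transamination and glutamate (5), the branched chain amino acids (12), lysine (2), and proline and ornithine (3). Of the 49 genes, 47 had a probe set named for them alone, out of 18193 genes named in that way on the array. All 47 passed the filter on low values and were tested, among 11159 genes in all. Acmsd and Amt are not analysed here, and Mut was read under its current symbol Mmut. The 47 genes had 76 probe sets, of which 71 were tested. A gene with several was read at its brightest, the one with the highest mean over all arrays.

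Messenger RNA was measured with Affymetrix Mouse Genome 430 2.0 arrays in livers of C57BL/6J males that were newborn (day of life 1). The 4 KO livers came from mice in which the glycerol kinase gene, Gyk, was knocked out, and the 3 WT livers from wild type littermates of the same age. KO pups of this age showed no overt disease, according to the submitters, and each array held RNA from 1 liver. Glycerol kinase adds phosphate to glycerol, the step by which liver takes glycerol into glucose and lipid synthesis, and its loss in people causes glycerol kinase deficiency. Every group was untreated as far as the labels say, and no allele other than the Gyk knockout was named. In what follows, KO1 to KO4 and WT1 to WT3 are the replicate numbers in the sample titles, and values are intensities on the linear scale scaled by the authors to a common array mean. A log2 fold change is KO minus WT on the log2(intensity + 16) scale with its standard error, tested with limma. A gene passed where its p, adjusted by the Benjamini-Hochberg method over all probe sets tested, was under 0.05.

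The liver is the main organ that oxidises amino acids other than the branched chain ones, and most of its breakdown pathways start by moving the amino group to a keto acid or by an irreversible oxidation. The carbon skeletons then enter glucose synthesis, ketone bodies or the citric acid cycle, while nitrogen goes to the urea cycle. Many of these enzymes are switched on around birth, when the pup passes from placental supply to milk and to fasting between feeds, under glucagon, glucocorticoids and hepatocyte transcription factors.

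The 7 arrays correlated with one another at 0.930 to 0.985 (log2 scale, the probe sets tested). Their median log2(intensity + 16) over all probe sets but controls ran from 6.76 to 6.95. All 8 hepatocyte markers tested were present, Alb, Apoa1 and Ttr among them, with a summed intensity of 224050 to 296670 in KO and 232980 to 259140 in WT livers, and 0 of the 8 passed the test with limma (1 at an unadjusted p under 0.05). KO3 had the highest ratio of 3′ to 5′ signal of all 7 arrays for each of the 4 control transcripts, a measure of RNA quality. For the transferrin receptor control that ratio was 11.1 in KO3, 7.22 to 7.32 in the other KO arrays and 7.91 to 8.24 in WT arrays. Red cell precursor markers moved with genotype. All 10 tested had log2 fold changes below 0 (median -0.41), and 3 of them fell (Slc4a1, Rhag and Trim10), where 1.67% of all genes did. The summed intensity of the 11 named on the array was 77868 to 89232 in KO and 97821 to 111690 in WT livers. The 8 endothelial markers summed to 8632 to 14587 in KO and 14620 to 16975 in WT livers, with 6 below 0. With limma 0 passed the test, and 3 had an unadjusted p under 0.05, where 12.3% of all genes were higher and 10.2% lower. Of these 3, Stab2 (-0.51) and Lyve1 (-0.71) were lower, with every KO liver below every WT liver. Tek (0.61) was higher, with every KO liver above every WT liver. The other marker lists (fetal liver, macrophage, neutrophil, lymphocyte, stellate and bile duct) had summed intensities that overlapped between genotypes, and of the pancreas, skeletal muscle and kidney lists 1, 1 and 0 genes passed the filter. No marker list had a member at an intensity of 0. In whole liver, fewer cells of a type and less RNA per cell cannot be told apart, and the part of these shifts in the results below was not tested.

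Among the 47 enzymes, 5 genes rose in KO livers and 1 fell, 6 calls in all, where 4.76% of all genes tested (4.24% of all probe sets) passed in either direction. Kynu, Hibch, Csad, Bckdhb and Got2 rose, which is 10.6% of the genes, against 3.09% of all genes tested that rose. Gpt2 fell, 2.13% of the genes against 1.67% of all genes tested. The direction of the members was uneven: 37 of 47 (78.7%) had a log2 fold change above 0, against 49.9% of all genes tested. Their median log2 fold change was 0.33, against -0.00 over all genes. Of the hepatocyte markers, 7 of 8 (87.5%) were also above 0, with a median of 0.07 and 0 called. The groups did not overlap, with every KO liver above every WT liver, for 13 members (27.7%, against 11.7% of all genes), and with every KO liver below every WT liver for 1 (2.13%, against 10.4%). Another 41 members did not pass. At an unadjusted p under 0.05, 19 members were higher in KO livers, where 12.3% of all genes were, and 4 were lower, where 10.2% of all genes were.

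**Figure D1:**
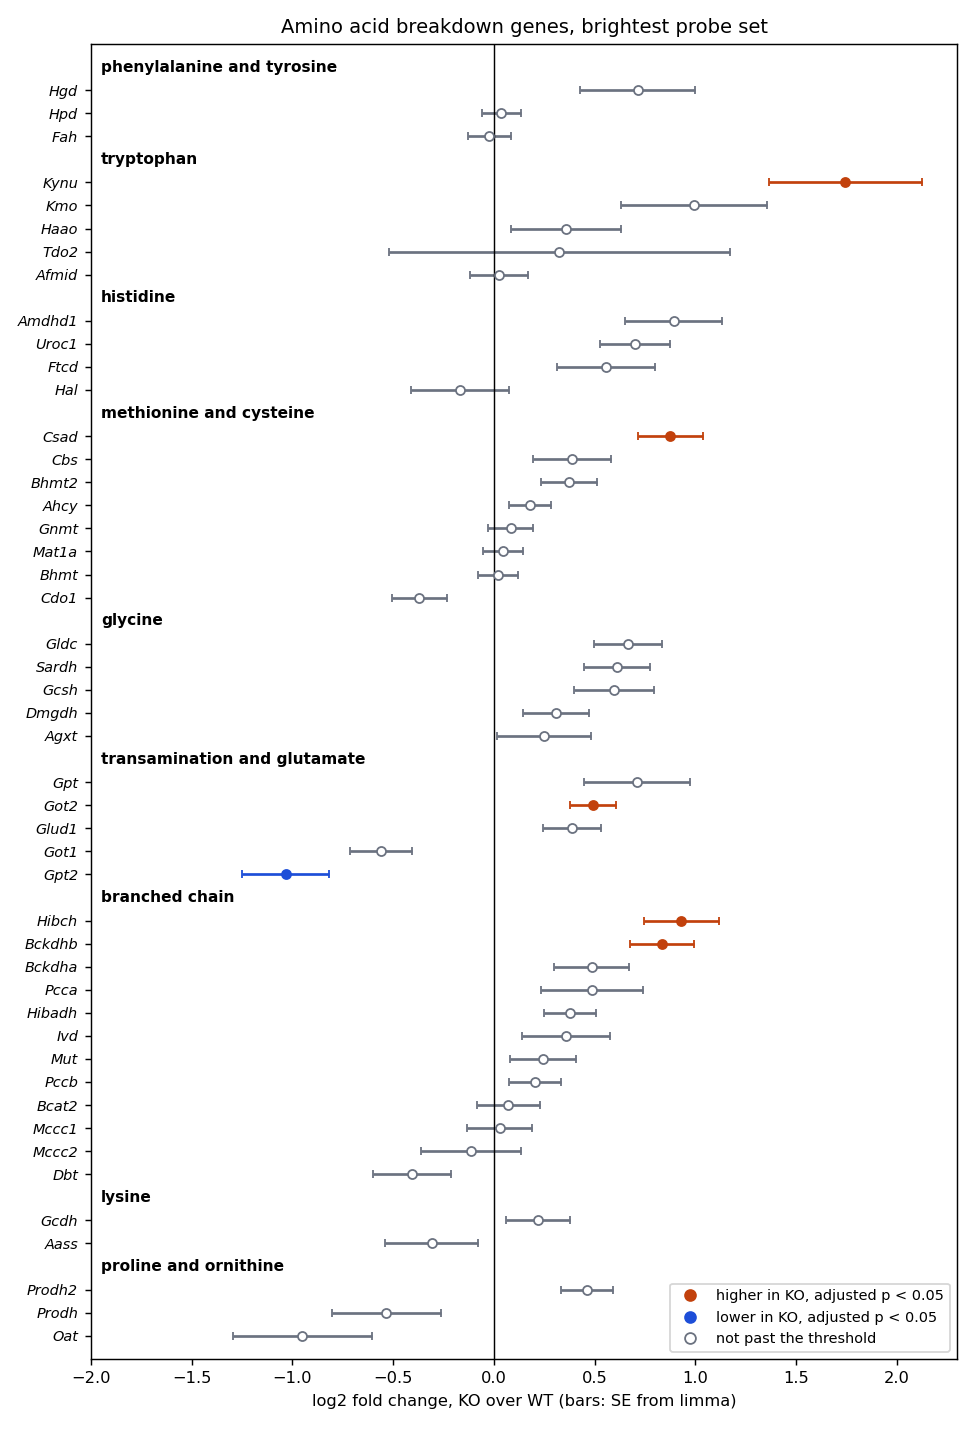
Log2 fold change, KO over WT, of the 47 tested amino acid breakdown genes (x axis), grouped by the amino acid they degrade (y axis). Points are the brightest probe set, bars are standard errors from limma, and filled points pass an adjusted p under 0.05. Most points lie to the right of 0, and Gpt2 is the lowest at -1.03 while Kynu is the highest at 1.74.

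The promoters of the genes that passed are shown, 5 of the 6 having an entry, because the results turn on these genes. They are from RefSeq (GRCm38.p6), 250 bases before to 50 bases after the annotated start, 5′ to 3′ along the gene, and 43 of the 49 genes had such an entry. Capitals mark AGGTCA on either strand (TGACCT on the other), the core motif that many nuclear receptors bind. Got2 is on the minus strand of the chromosome at chr8:95888352-95888651. Bckdhb has 2 starts on the plus strand, at chr9:83924887-83925186 (start 1) and chr9:83948531-83948830 (start 2). Csad has 2 on the minus strand, at chr15:102205003-102205302 (start 1) and chr15:102188994-102189293 (start 2). Hibch is on the plus strand at chr1:52844788-52845087, and Gpt2 on the plus strand at chr8:85492326-85492625.
Got2: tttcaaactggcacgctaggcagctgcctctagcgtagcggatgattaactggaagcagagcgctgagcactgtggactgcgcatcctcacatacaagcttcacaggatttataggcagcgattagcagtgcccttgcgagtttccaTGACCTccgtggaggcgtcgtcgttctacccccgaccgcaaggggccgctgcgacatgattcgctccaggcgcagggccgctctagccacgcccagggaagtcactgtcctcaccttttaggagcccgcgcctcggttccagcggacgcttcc
Bckdhb start 1: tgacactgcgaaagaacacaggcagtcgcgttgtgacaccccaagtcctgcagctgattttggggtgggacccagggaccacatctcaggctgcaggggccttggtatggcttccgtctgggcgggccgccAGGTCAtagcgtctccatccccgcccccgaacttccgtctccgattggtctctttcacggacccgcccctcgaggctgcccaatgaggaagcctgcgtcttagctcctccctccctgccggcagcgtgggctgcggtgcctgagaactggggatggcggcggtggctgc
Bckdhb start 2: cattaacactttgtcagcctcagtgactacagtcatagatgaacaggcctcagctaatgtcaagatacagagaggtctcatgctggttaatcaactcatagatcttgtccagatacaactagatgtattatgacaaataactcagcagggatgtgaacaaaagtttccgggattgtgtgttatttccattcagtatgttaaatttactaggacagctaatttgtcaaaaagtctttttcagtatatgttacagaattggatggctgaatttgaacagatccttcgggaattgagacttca
Csad start 1: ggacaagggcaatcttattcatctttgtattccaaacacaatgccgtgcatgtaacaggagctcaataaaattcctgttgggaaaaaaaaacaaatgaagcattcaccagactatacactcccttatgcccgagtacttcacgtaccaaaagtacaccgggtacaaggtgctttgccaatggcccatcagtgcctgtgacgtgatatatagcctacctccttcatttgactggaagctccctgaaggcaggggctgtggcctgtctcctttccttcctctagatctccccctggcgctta
Csad start 2: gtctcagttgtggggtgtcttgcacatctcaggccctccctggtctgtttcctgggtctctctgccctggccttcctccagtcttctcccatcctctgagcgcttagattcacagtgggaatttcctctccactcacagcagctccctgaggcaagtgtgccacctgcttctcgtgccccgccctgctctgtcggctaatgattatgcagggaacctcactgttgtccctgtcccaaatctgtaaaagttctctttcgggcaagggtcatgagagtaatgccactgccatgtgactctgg
Hibch: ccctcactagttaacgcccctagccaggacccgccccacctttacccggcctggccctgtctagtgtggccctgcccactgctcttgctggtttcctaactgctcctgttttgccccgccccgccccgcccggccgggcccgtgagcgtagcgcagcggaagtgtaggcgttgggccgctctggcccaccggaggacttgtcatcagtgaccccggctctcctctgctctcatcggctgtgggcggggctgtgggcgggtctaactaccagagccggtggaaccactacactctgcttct
Gpt2: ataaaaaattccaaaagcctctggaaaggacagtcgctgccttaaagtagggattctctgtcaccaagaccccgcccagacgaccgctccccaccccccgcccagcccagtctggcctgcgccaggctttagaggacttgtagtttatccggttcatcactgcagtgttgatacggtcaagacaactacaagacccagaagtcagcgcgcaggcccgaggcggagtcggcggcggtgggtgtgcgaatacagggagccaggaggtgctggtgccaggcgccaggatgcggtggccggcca
AGGTCA was found in 18 of the 47 promoters (38.3%) of the 43 genes with an entry, some genes having several. The matches lie in 17 genes, among them Acmsd and Amt, whose expression is not analysed here. Of all 32851 promoters of that length, 16.3% held it, both strands searched. The Got2 match lies 103 bases before the start, with AGGTCA on the strand opposite to the one printed, and the Bckdhb match 119 bases before start 1, on the strand printed. No such letters are in the other 5 windows. The direct repeat AGGTCANAGGTCA was in 0 member promoters and in 0.0396% of all. Member promoters were also read for TTGCNNAA, the motif of C/EBP factors (10.6% against 10.8% of all), GTTAAT of HNF1 (10.6% against 7.10%), ACANNNTGT of the glucocorticoid receptor (12.8% against 6.85%) and TATAAA (10.6% against 13.6%). Median GC content was 56.0% in member promoters and 52.7% in all. These matches describe the sequences and were not tested.

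Kynu, kynureninase, cleaves kynurenine and 3-hydroxykynurenine in the tryptophan pathway. Its intensity was 404.6, 836.9, 914.7 and 696.4 in KO1 to KO4, and 93.5, 230.0 and 320.3 in WT1 to WT3. Every KO liver was above every WT liver, with KO1 the lowest of the KO group. The log2 fold change was 1.74 ± 0.38 (SE, adjusted p = 0.0360), and the mean was 713.1 ± 224.7 in KO and 214.6 ± 114.2 in WT livers (SD, n = 4 and n = 3). The call was held without KO1, and was lost without each of the other 6 arrays (highest adjusted p = 0.0872, without WT1).

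Csad, which decarboxylates cysteine sulfinate on the way to taurine, had 4503.0, 5424.4, 6880.0 and 6376.2 in KO1 to KO4, and 3596.6, 2909.9 and 2875.5 in WT1 to WT3. All KO livers were above all WT livers, and the log2 fold change was 0.88 ± 0.16 (adjusted p = 0.0206). Bckdhb, a subunit of the first component of the branched chain keto acid dehydrogenase, had 6767.8, 5018.0, 5619.1 and 7406.3 in KO1 to KO4, and 4015.6, 3247.3 and 3105.3 in WT1 to WT3. It too separated the genotypes, with a log2 fold change of 0.83 ± 0.16 (adjusted p = 0.0231). Both calls were held without KO1, KO2, KO3 or WT1 and were lost without KO4, WT2 or WT3, where the adjusted p was at most 0.113 for Csad and 0.120 for Bckdhb.

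Hibch, which frees 3-hydroxyisobutyrate from its coenzyme A ester in valine breakdown, had 1181.9, 1425.8, 1961.5 and 1676.5 in KO1 to KO4, and 699.3, 842.7 and 862.3 in WT1 to WT3. The genotypes did not overlap, and the log2 fold change was 0.93 ± 0.19 (adjusted p = 0.0272). The call was held without KO1 or KO3 and was lost without each of the other 5 arrays (highest adjusted p = 0.101, without WT3). A second, dimmer Hibch probe set had a log2 fold change of 0.19 and did not pass. It is the one read when probe sets of a type that can match several transcripts are left out (adjusted p = 0.693), a setting that leaves no probe set for Csad.

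**Figure D2:**
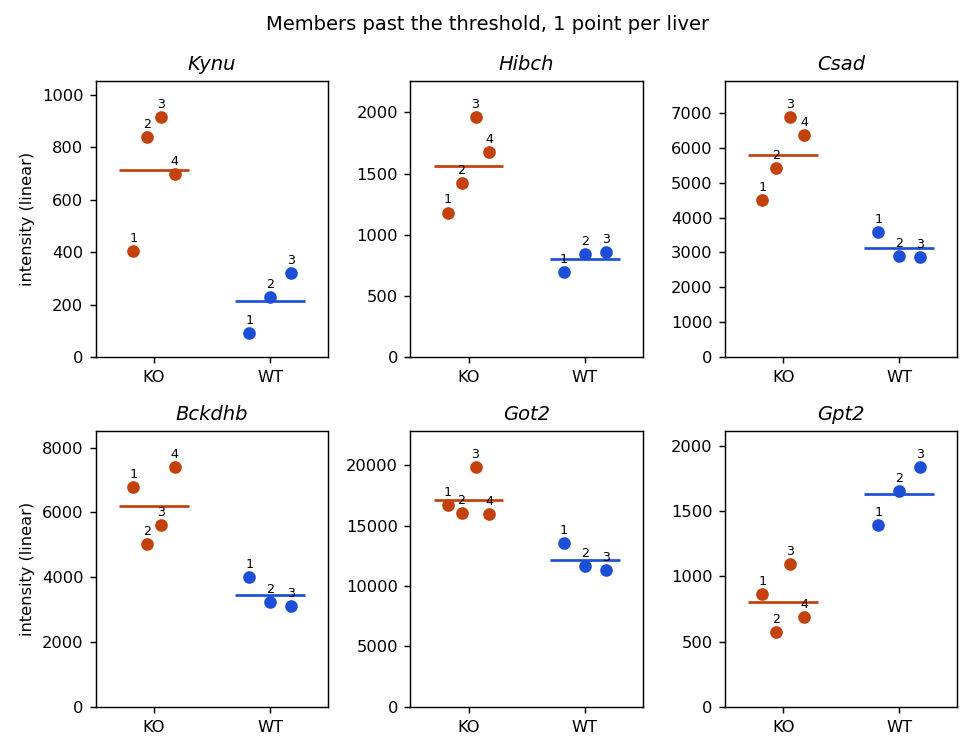
Intensity (y axis, linear, from 0) of the 6 genes that passed the test, 1 point per liver with its replicate number, KO left of WT; lines are group means. In Kynu, Hibch, Csad, Bckdhb and Got2 every KO point lies above every WT point, and in Gpt2 every KO point lies below every WT point.

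The transaminases split by gene. Got2, the mitochondrial aspartate aminotransferase, had 16661.5, 16053.4, 19859.6 and 15980.0 in KO1 to KO4, and 13541.2, 11622.1 and 11340.5 in WT1 to WT3. The log2 fold change was 0.49 ± 0.11 (adjusted p = 0.0410), and a second Got2 probe set rose by 0.80 (adjusted p = 0.0108), while another stood at 0.18 and did not pass. The Got2 call at the brightest probe set was held only without KO3 among the 7 single omissions (highest adjusted p = 0.185, without WT3). Gpt2, the mitochondrial alanine aminotransferase, had 867.2, 573.4, 1096.0 and 689.3 in KO1 to KO4, and 1393.1, 1656.7 and 1840.2 in WT1 to WT3. Every KO liver was below every WT liver, and its log2 fold change was -1.03 ± 0.22 (adjusted p = 0.0317). All 4 Gpt2 probe sets had log2 fold changes below 0, and 1 of the other 3 passed (-1.19), while those at -0.52 and -0.41 did not. Both probe sets that passed are of a type that can match several transcripts, and without that type Gpt2 was read at -0.52 (adjusted p = 0.110). The Gpt2 call was held without KO1 or KO3, was lost without each of the other 5 arrays (highest adjusted p = 0.150, without WT3), and missed the threshold when array medians were set equal (adjusted p = 0.0501).

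The cytosolic partners of these enzymes did not pass. Got1, the cytosolic aspartate aminotransferase, had 27836.6, 18145.5, 17365.3 and 19206.8 in KO1 to KO4, and 30238.1, 27549.7 and 31978.2 in WT1 to WT3. KO1 lay within the WT range, and the log2 fold change was -0.56 ± 0.15 (adjusted p = 0.0699). Gpt, the cytosolic alanine aminotransferase, had 1814.8, 894.7, 1413.2 and 864.4 in KO1 to KO4, and 639.9, 901.2 and 646.8 in WT1 to WT3, a log2 fold change of 0.71 ± 0.26 (adjusted p = 0.155). Glud1, glutamate dehydrogenase, which releases ammonia from glutamate, stood at 0.39 ± 0.14 (adjusted p = 0.156). The difference between the changes of Gpt and Gpt2, or of Got1 and Got2, was not tested.

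All 5 tryptophan enzymes had log2 fold changes above 0 (median 0.36), and 1 rose, Kynu. Tdo2, which takes the first and rate-limiting step in liver, had 5556.5, 671.4, 2667.1 and 1527.5 in KO1 to KO4, and 327.8, 3108.9 and 3745.7 in WT1 to WT3. The genotypes overlapped widely, the log2 fold change was 0.33 ± 0.84 (adjusted p = 0.863), and the other 2 Tdo2 probe sets had the opposite sign (-0.08 and -0.40). Kmo, kynurenine 3-monooxygenase, had 1421.8, 2036.8, 2498.3 and 2046.2 in KO1 to KO4, and 462.6, 1296.7 and 1542.8 in WT1 to WT3. KO1 lay below the highest WT liver, and the log2 fold change was 0.99 ± 0.36 (adjusted p = 0.147). Haao, which opens the ring of 3-hydroxyanthranilate, and Afmid, which forms kynurenine, had log2 fold changes of 0.36 and 0.03.

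**Figure D3:**
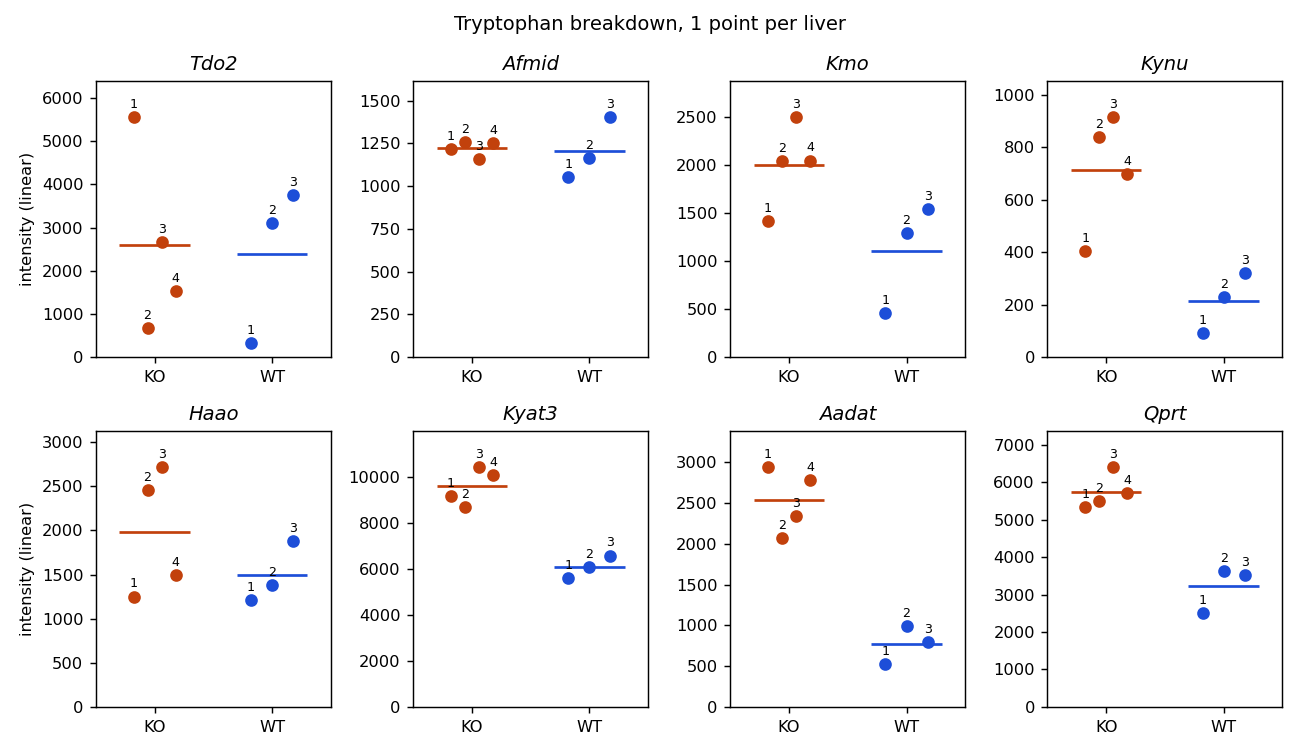
Intensity (y axis, linear, from 0) of the 5 tryptophan members, with the related genes Kyat3, Aadat and Qprt, 1 point per liver with its replicate number, KO left of WT; lines are group means. Kynu, Kyat3, Aadat and Qprt do not overlap between genotypes, and Tdo2 ranges from 671.4 to 5556.5 in KO livers. The related genes shown are ones that rose. Kyat1, of the same list, is not shown (log2 fold change -0.525, adjusted p = 0.388 with limma, genotypes overlapping).

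None of the 4 histidine enzymes passed with limma at the threshold. At an unadjusted p under 0.05, 3 were higher, where 12.3% of all genes were. Uroc1, urocanase, had 3150.9, 3402.1, 5029.9 and 3147.6 in KO1 to KO4, and 2126.1, 2328.6 and 2194.8 in WT1 to WT3, a log2 fold change of 0.70 ± 0.17 (adjusted p = 0.0513). Amdhd1, imidazolonepropionase, had 1741.7, 2156.1, 1569.9 and 2135.5 in KO1 to KO4, and 650.8, 1125.2 and 1393.7 in WT1 to WT3, a log2 fold change of 0.89 ± 0.24 (adjusted p = 0.0678). In both genes every KO liver was above every WT liver at the brightest probe set. A second, dimmer probe set of each overlapped between genotypes (Uroc1 0.69, adjusted p = 0.155, and Amdhd1 0.22, adjusted p = 0.696). Ftcd, which passes the formimino group to folate, had 0.56 ± 0.24, and Hal, the histidine ammonia lyase that starts the pathway, had -0.17.

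The 5 glycine enzymes all had log2 fold changes above 0 (median 0.60), and 0 passed with limma. Of the 5, 3 were higher at an unadjusted p under 0.05, where 12.3% of all genes were. Gldc, the decarboxylase of the glycine cleavage system, had 1691.9, 2015.9, 1555.8 and 1368.8 in KO1 to KO4, and 992.0, 1199.9 and 915.3 in WT1 to WT3 (log2 fold change 0.67 ± 0.17, adjusted p = 0.0555). Sardh, which turns sarcosine into glycine, had 5690.9, 4847.5, 3484.2 and 4969.4 in KO1 to KO4, and 2852.3, 3276.8 and 3051.4 in WT1 to WT3 (0.61 ± 0.16, adjusted p = 0.0668). Neither gene overlapped between genotypes at these probe sets, while a second, dimmer Sardh probe set did (0.35, adjusted p = 0.322). Gcsh, the lipoyl carrier of glycine cleavage, had a log2 fold change of 0.60, Dmgdh, which acts before Sardh, 0.31, and Agxt, the glyoxylate transaminase, 0.25.

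Of the 8 methionine and cysteine enzymes, 1 rose (Csad) and 7 were above 0 (median 0.13). The enzymes of the methionine cycle did not pass. Mat1a, which makes S-adenosylmethionine, was at 0.05, Gnmt, a glycine methyltransferase, at 0.08, Ahcy, which splits S-adenosylhomocysteine, at 0.18, and Bhmt, which remethylates homocysteine with betaine, at 0.02. Mat1a, Ahcy and Bhmt, like Hpd of tyrosine breakdown, were above 20000 on every array, where saturation could compress a fold change and was not tested. Bhmt2 had 0.37 ± 0.14 (adjusted p = 0.155), with the genotypes apart, and Cbs, which joins homocysteine and serine, had 0.39 ± 0.19. Cdo1, which oxidises cysteine and so makes the substrate of Csad, had 16430.2, 11174.0, 13576.5 and 11350.2 in KO1 to KO4, and 16325.1, 16985.5 and 16976.4 in WT1 to WT3. Its log2 fold change was -0.37 ± 0.14 (adjusted p = 0.150), and KO1 lay within the WT range.

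Among the 12 branched chain enzymes, 2 rose (Hibch and Bckdhb) and 10 were above 0, with a median of 0.30. The other subunits of the keto acid dehydrogenase did not pass: Bckdha was at 0.49 ± 0.19 and Dbt, its second component, at -0.41 ± 0.19. Bcat2, the transaminase of the pathway, was at 0.07. In leucine breakdown Ivd was at 0.36, Mccc1 at 0.03 and Mccc2 at -0.11, and second probe sets of Ivd and Mccc2 had the opposite sign (-0.03 and 0.05). Of the remaining branched chain enzymes, Hibadh, which acts after Hibch, was at 0.38 with the genotypes apart. Pcca was at 0.49, Pccb at 0.20 with the genotypes apart, and Mut at 0.24.

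The remaining 8 genes held 0 that passed with limma. An unadjusted p under 0.05 was seen for 3, where 12.3% of all genes were higher and 10.2% lower. In tyrosine breakdown, Hpd, Hgd and Fah act in that order, and their log2 fold changes were 0.04, 0.71 ± 0.29 and -0.02. Lysine breakdown starts with Aass, at -0.31, and Gcdh follows later, at 0.22. Prodh2, a hydroxyproline dehydrogenase, had 3995.2, 3479.1, 4275.9 and 4272.7 in KO1 to KO4, and 2589.3, 3058.0 and 3067.9 in WT1 to WT3, with no overlap (0.46 ± 0.13, adjusted p = 0.0748). Prodh, the proline dehydrogenase, was at -0.53. Oat, ornithine aminotransferase, had 8559.8, 2433.8, 5158.1 and 3413.1 in KO1 to KO4, and 9890.9, 8386.0 and 7356.9 in WT1 to WT3, a log2 fold change of -0.95 ± 0.34 (adjusted p = 0.146), with KO1 inside the WT range.

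The livers differed among themselves in ways that touch these counts. KO3 had the highest KO value for 25 of 47 members, and relative to the WT mean its median over the members was 0.56 on the log2 scale, against 0.35 in KO1, 0.11 in KO2 and 0.16 in KO4. KO3 is also the array with the highest 3′ to 5′ ratios. Without KO3 the median log2 fold change of the members was 0.18, 6 members rose (Kynu lost its call, and Sardh and Uroc1 gained one) and Gpt2 still fell. In the WT group, WT1 was the lowest for 32 of 47 members and WT3 the highest for 27. Without WT1, 2 members passed (Csad and Bckdhb, both higher in KO livers). Log2 fold changes were then 0.47 for Kmo, 0.35 for Hgd, 0.24 for Ftcd, 0.58 for Amdhd1, 0.19 for Cbs, 0.22 for Haao and -0.78 for Tdo2, each smaller by over 1.5 times, or of the other sign, than with all arrays. KO1 lay within the WT range for Oat, Got1 and Cdo1, and above it for Aass, while KO2 to KO4 lay below every WT liver in each of these 4 genes. The 4 were picked after their values were seen. Without KO1, 6 members rose (Got2 lost its call, and Gcsh and Uroc1 gained one) and 4 fell: Gpt2 (-1.08), Oat (-1.27, adjusted p = 0.0243), Got1 (-0.71, adjusted p = 0.00684) and Cdo1 (-0.48, adjusted p = 0.0424).

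**Figure D4:**
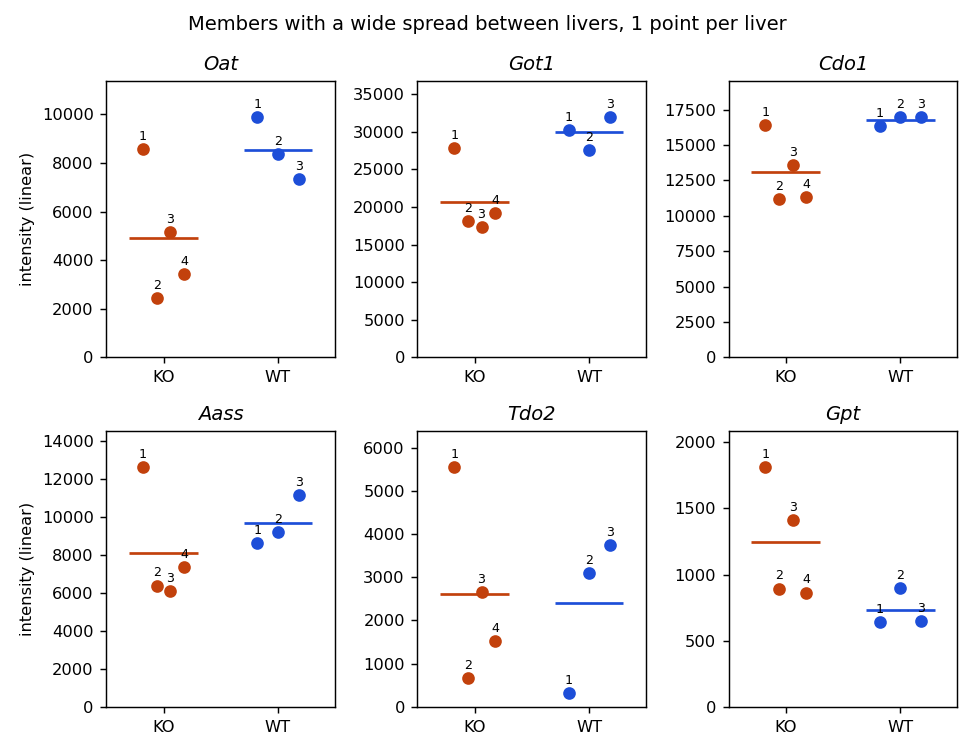
Intensity (y axis, linear, from 0) of 6 members with a wide spread between livers, picked after their values were seen, 1 point per liver with its replicate number, KO left of WT; lines are group means. KO1 has the highest KO value in each of the 6 genes, and lies within the WT range for Oat, Got1 and Cdo1.

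**Figure D5:**
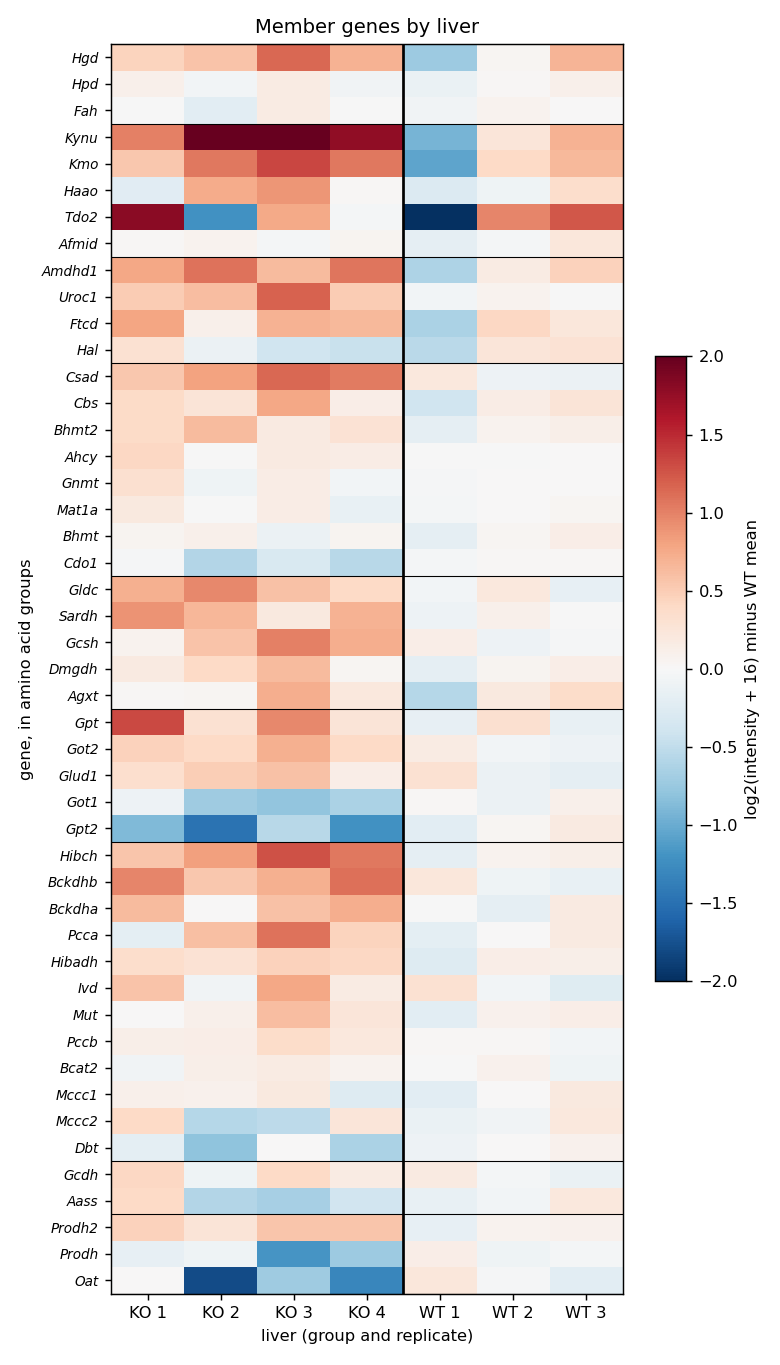
The 47 tested members (rows, in amino acid groups parted by lines) in each liver (columns, KO left of WT), coloured by log2(intensity + 16) minus the WT mean of the gene; values beyond 2 in either direction take the end colour. The KO columns are mostly above the WT mean, most in KO3, and Oat, Got1, Gpt2 and Cdo1 are below it in KO2 to KO4.

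Other amino acid breakdown genes, named from the same pathways and with earlier results known, gave 47 tested genes of 50 named on the array. Of these 12 rose and 0 fell with limma (25.5% and 0.00%), against 3.09% and 1.67% of all genes tested. At an unadjusted p under 0.05, 17 were higher and 3 lower, where 12.3% and 10.2% of all genes were. The median log2 fold change was 0.30. With 1 array left out, 2 (without WT3) to 11 (without KO1) rose: 7 without KO2, 10 without KO3, 5 without KO4, 4 without WT1 and 5 without WT2. Shmt1, the cytosolic serine hydroxymethyltransferase that interconverts serine and glycine, had 3261.9, 3212.2, 2999.7 and 3599.2 in KO1 to KO4, and 1196.0, 1120.2 and 1351.8 in WT1 to WT3 (1.41 ± 0.13, adjusted p = 0.00182). Aadat, an aminotransferase acting on kynurenine and aminoadipate, had 2943.3, 2070.6, 2344.3 and 2786.3 in KO1 to KO4, and 529.1, 989.5 and 800.2 in WT1 to WT3 (1.72 ± 0.22, adjusted p = 0.00408). Both genes kept their calls when any 1 of the 7 arrays was left out.

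Gstz1, the isomerase between Hgd and Fah, had 4915.0, 3861.5, 4489.9 and 4964.9 in KO1 to KO4, and 2279.7, 2739.8 and 2705.5 in WT1 to WT3 (0.82 ± 0.14, adjusted p = 0.0131), and lost its call only without WT3 (adjusted p = 0.0632). Kyat3, another kynurenine aminotransferase, had 9147.7, 8692.4, 10424.2 and 10079.2 in KO1 to KO4, and 5595.0, 6066.0 and 6571.1 in WT1 to WT3 (0.66 ± 0.11, adjusted p = 0.0151), and lost its call without any 1 of the 3 WT arrays (highest adjusted p = 0.0625). The other 8 that rose were Qprt, Aldh4a1, Tst, Pcbd1, Acat1, Hykk, Mmaa and Hsd17b10, with log2 fold changes between 0.70 and 1.46. With 1 array left out, Qprt lost its call only without WT3 (adjusted p = 0.0603), Tst held it in 3 of 7 omissions, Aldh4a1, Pcbd1, Acat1 and Hykk in 2, Hsd17b10 in 1 and Mmaa in 0 (highest adjusted p = 0.185, for Hsd17b10 without WT3). Qprt carries the tryptophan pathway on to NAD, and Aldh4a1 acts after Prodh. Kyat1, a kynurenine aminotransferase of the same list, did not pass (-0.525 ± 0.33, adjusted p = 0.388), and its genotypes overlapped.

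The urea cycle list had 9 genes tested, with 0 called in either direction with limma and a median of -0.12. At an unadjusted p under 0.05, 2 were higher and 2 lower, where 12.3% and 10.2% of all genes were. The 2 with the smallest p were Slc25a13, the aspartate and glutamate carrier (0.39 ± 0.10, adjusted p = 0.0520), and Slc25a15, the ornithine carrier (-0.69 ± 0.19, adjusted p = 0.0689). Of 19 regulators of amino acid breakdown tested, 2 rose, where 3.09% of all genes did: Nr1h4, the bile acid receptor FXR (1.08 ± 0.23, adjusted p = 0.0332), and Insr, the insulin receptor (0.74 ± 0.17, adjusted p = 0.0453). Of 15 amino acid transporters tested, 2 fell, where 1.67% of all genes did: Slc7a5, which carries large neutral amino acids (-0.83 ± 0.13, adjusted p = 0.0115), and Slc1a5, which carries glutamine and other neutral amino acids (-0.91 ± 0.22, adjusted p = 0.0465). With 1 array left out, Slc7a5 lost its call only without WT3 (adjusted p = 0.0797). Nr1h4 lost it without KO2, KO4, WT1 or WT3 (highest 0.107, without WT3), Insr without any array but KO1 (highest 0.138, without WT1), and Slc1a5 without any but KO2 and KO3 (highest 0.188, without WT3).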

How the data were processed

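One array per liver was hybridised for 4 KO and 3 WT livers, and groups come from the sample titles. The authors deposited linear intensities, 1 per probe set. Per the submitters' processing notes the software was GCOS; how probes were summarised is not stated in any source used here. Arrays had been scaled to a trimmed mean of 500.003, so a change in total messenger RNA would not be seen. Precision is limited by the number of arrays.

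Of 45101 probe sets, 64 controls were left out, and the 22518 with a mean above the median were tested with limma 3.58.1 in R 4.3.3 (lmFit, eBayes with a trend) on log2(intensity + 16), without covariates. Array medians agreed within 0.2 on that scale, so no scaling was added. This scale understates changes of dim probe sets. Gene names came from the annotation of the platform, with symbols updated through RefSeq (GRCm38.p6).

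All 49 genes are accounted for. Arrays' values are given for members that passed and for some others, most of them with an unadjusted p under 0.05 with limma. Not every neighbour in a pathway has its array values given. Each other list names up to 4 genes that passed, or 2 of smallest p, with Kyat1 added as a relative of Kyat3. The remaining genes of a count are named without values. The members and lists were chosen with earlier results of these data known. The alternatives were other scalings, offsets, filters, probe set rules, eBayes settings, an adjusted p of 0.1, a replicate block and single omissions. The limma code was tested on simulated data. There it recovered 12% of 1.5 fold, 50% of 2 fold, 90% of 4 fold and 98% of 8 fold changes. A gene that did not pass may therefore still have changed. Plots used matplotlib 3.10.9. The targeted transcript is not reported here, so the KO labels were not checked by it. Litters are not given.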

Additional observations from a re-analysis of the deposited data

Results flagged for a closer look

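Uroc1 in KO3 stood apart from the other KO livers, at an intensity of 5029.9 against 3147.6 to 3402.1 in KO1, KO2 and KO4. The gap to the nearest value was 0.834 of the range of the group, above Dixon's critical value for 4 samples. It was the only one of 47 members, and chance alone is expected to mark about 1 in 20 groups. WT livers ran from 2126.1 to 2328.6. Without KO3 the log2 fold change of Uroc1 was 0.54 (adjusted p = 0.0372).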

How the results depend on the processing

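Of members, 5 rose and 1 fell, and 955 probe sets changed over the whole array. With no filter the counts were 3, 0 and 473, with eBayes without a trend 3, 1 and 584, with probe sets of shared types left out 3, 0 and 611, and at an adjusted p under 0.10 10, 2 and 2032. Reading a gene at the mean of its probe sets left 3 that rose, and equal array medians left 0 that fell beside 6 that rose. Leaving out 1 array gave 0 to 6 that rose, 0 to 4 that fell, and 141 to 1002 probe sets. None of the 6 calls was held without KO4, WT2 or WT3. The fewest probe sets were called without WT3 (141). The median log2 fold change was 0.33, and 0.18 to 0.40 with 1 array left out. No called member changed sign. Of the members that did not pass, 9 changed sign under at least 1 alternative: Tdo2 (0.33, and -0.78 without WT1), Agxt (0.25, and -0.04 without WT1), and Fah, Mat1a, Bhmt, Hpd, Afmid, Mccc1 and Mccc2, all between -0.11 and 0.05 with all arrays. Of the other breakdown genes, 12 rose, and 2 to 11 with 1 array left out or 3 to 15 under the other settings. Hibch did not pass at the mean of its probe sets (adjusted p = 0.117). The causes were not tested. Replicate numbers were not used to pair the livers in the main fit. Same-numbered KO and WT arrays correlated at 0.09, -0.06 and 0.06 in deviations from group means. The other pairs ran from -0.13 to 0.12. Whether livers share a litter or batch was not tested. A fit with the replicate number as a block gave 1, 0 and 351. KO4 has no same-numbered WT array, so it does not inform the genotype difference in that fit. For the 6 called members, the log2 fold changes of the block fit equal those without KO4 (Kynu 1.73 in both). Without KO4 the counts were 0, 0 and 372. Array number, and the noise of dim probe sets, limit the precision.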
